A study of Mus musculus with 4 samples.

Results

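The genes described here are 10 components of bone morphogenetic protein (BMP) signalling in the mouse tibia at postnatal day 6 (P6). They were taken by name from the 31053 genes of the matrix and fall into 5 ligands (Bmp2, Bmp4, Bmp6, Bmp7 and Bmp8a), 3 secreted antagonists (Grem1, Nog and Chrdl1) and 2 target genes (Id1 and Smad6). The cells came from the proximal and distal tibia of 1 untreated male mouse, from 2 bones, and were counted as 1 library that is listed as 4 sequencing entries. The animal carried Col10a1Cre, which drives recombination from the collagen X gene of hypertrophic chondrocytes (HCs), the Rosa26-Tdtomato reporter, an Irx3 +/Δ allele and an Irx5 +/- allele, and is labelled a heterozygous control. All cells come from this animal, and no wild-type animal was analysed here. The paper writes the Irx3 allele as +/ΔHC, a deletion in the HC lineage, so cells outside that lineage may not carry it. With a single library nothing was tested across animals, and the cells do not stand in for replicates. Intervals cover counting error only.

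BMPs are secreted dimers that bind receptor pairs on the cell surface and lead to phosphorylation of Smad1, Smad5 and Smad9, which enter the nucleus with Smad4. Secreted proteins such as noggin (Nog), gremlin 1 (Grem1) and chordin-like 1 (Chrdl1) bind the ligands and keep them from the receptors. Id1, an inhibitor of basic helix-loop-helix factors, is a well known direct target, and Smad6 is a target that acts as an intracellular inhibitor of the same pathway. In the growth plate BMP signalling promotes chondrocyte proliferation and maturation, and in bone it promotes osteoblast differentiation.

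Bmp2 lies on chromosome 2 at 133552159 to 133562885 of GRCm38 (plus strand), Bmp4 on chromosome 14 at 46383520 to 46390669 (minus strand), Bmp6 on chromosome 13 at 38345107 to 38500302 (plus strand), Bmp7 on chromosome 2 at 172868012 to 172940321 (minus strand) and Bmp8a on chromosome 4 at 123312645 to 123343252 (minus strand). Grem1 lies on chromosome 2 at 113746164 to 113758646 (minus strand), Nog on chromosome 11 at 89300638 to 89302332 (minus strand) and Chrdl1 on chromosome X at 143285674 to 143394262 (minus strand). Id1 lies on chromosome 2 at 152736251 to 152737410 (plus strand) and Smad6 on chromosome 9 at 63953076 to 64022059 (minus strand). All 10 are annotated as protein coding.

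Promoter sequences from RefSeq (GRCm38.p6) were found for 5 of the 10 genes, namely Bmp4, Bmp6, Bmp8a, Grem1 and Smad6. The 250 bases before the start are printed for Bmp4 and Grem1, the ligand and the antagonist with their highest levels in the same marrow stromal-like cells, and for the target Smad6, whose level was lowest in HC-like cells among the skeletal and vascular classes. Capitals mark GGCGCC, a sequence of the kind bound by BMP-activated Smads, and GTCTG or its reverse CAGAC, the Smad box, on either strand. GGCGCC stood in 9.59% and GTCTG in 42.2% of 32851 promoter windows of the same length.
Bmp4 (chr14:46390670-46390919, minus strand): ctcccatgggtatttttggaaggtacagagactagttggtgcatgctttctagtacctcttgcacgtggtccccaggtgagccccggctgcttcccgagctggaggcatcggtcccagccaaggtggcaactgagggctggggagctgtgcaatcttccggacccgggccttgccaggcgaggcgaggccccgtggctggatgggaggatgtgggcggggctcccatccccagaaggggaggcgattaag
Grem1 (chr2:113758649-113758898, minus strand): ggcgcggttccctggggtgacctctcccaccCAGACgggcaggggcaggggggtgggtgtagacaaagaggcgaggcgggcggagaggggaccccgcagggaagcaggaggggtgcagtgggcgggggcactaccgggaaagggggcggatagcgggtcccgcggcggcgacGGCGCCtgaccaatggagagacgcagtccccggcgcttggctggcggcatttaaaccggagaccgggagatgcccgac
Smad6 (chr9:64022060-64022309, minus strand): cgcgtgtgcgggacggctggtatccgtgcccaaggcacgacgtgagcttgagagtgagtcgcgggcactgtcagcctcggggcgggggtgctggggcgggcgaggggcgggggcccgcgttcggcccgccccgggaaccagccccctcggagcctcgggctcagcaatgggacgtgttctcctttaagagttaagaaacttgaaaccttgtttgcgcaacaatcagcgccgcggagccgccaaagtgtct
The Grem1 window held 1 GGCGCC, 78 bases before the start, and 1 CAGAC, 219 bases before it. Neither motif was found in the Bmp4 or Smad6 window. The windows of Grem1, Smad6 and Bmp4 had a GC content of 72.0%, 66.8% and 63.2%, against a median of 52.4% over all promoters. The counts of transcripts described below do not show which of these bases are used.

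Of 14181 barcodes, 8255 cells were kept, and the median cell held 13957 UMIs (molecular tags, counted once for every transcript captured). Clustering without the BMP genes gave 29 clusters, and marker genes put 7797 cells into 17 classes of at least 50 cells, 11 skeletal or vascular and 6 of blood cells. Another 428 cells in 4 clusters stayed unnamed and 30 T or NK-like cells were too few. Levels are UMIs of a gene scaled to 1000000 UMIs of its class (CPM), with a 95% Poisson interval. They are not divided by gene length, so only levels of the same gene are compared. The classes were named by their markers, so marker levels describe them and are no separate check. HC-like cells had 12606 CPM of Col10a1 and pre-HC-like cells 1027 CPM of Smpd3, a gene also on the mature osteoblast list. Mature osteoblast-like cells had 55669 CPM of Col1a1 and marrow stromal-like cells 8496 CPM of Cxcl12. Some marrow stromal-like cells also carried erythroid RNA. Over the class all 8 erythroid markers reached 10 CPM, summing to 30820 CPM, against 72178 CPM in erythroid-like and 1071 CPM in immature osteoblast-like cells. Hba-a1 was at 16458 CPM. In 37 of the 135 marrow stromal-like cells these markers made up over 1% of UMIs. The median cell of the class held 0.045%, against 0.030% in immature osteoblast-like cells. Scrublet marked 10.4% of the class as doublets. Levels and shares of marrow stromal-like cells include the 37 cells unless stated. Without them the class levels of Bmp4, Bmp6, Grem1 and Chrdl1 were higher, as given below. Median depth ran from 8110 UMIs in B lymphoid-like to 36327 UMIs in HC-like cells.

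Of the 10 genes, 6 were highest in a cartilage class (Bmp2, Bmp6, Bmp7, Bmp8a, Nog and Id1), 3 in marrow stromal-like cells (Bmp4, Grem1 and Chrdl1), 1 in pericyte or smooth muscle-like cells (Smad6) and 0 in a blood class. The share of all genes highest in a cartilage class was not counted, so the 6 are not read as a result about the set. Bmp6 and Chrdl1 were each not separable from their second class. With cells of over 1% erythroid marker UMIs left out, marrow stromal-like cells had 124 CPM of Bmp6 and 55.1 CPM of Chrdl1, above every cartilage class. Over the settings, Bmp6 was highest in marrow stromal-like cells in 8 of 12 and Chrdl1 in pre-HC-like cells in 7 of 10. The 12 include, and the 10 leave out, the settings that had no marrow stromal-like class. Ligands and antagonists were close to absent from blood cells, where each had at most 2.13 CPM apart from Bmp2 with 8.02 CPM in osteoclast or macrophage-like cells. Erythroid-like cells, which should lack these genes, held 0 to 0.80 CPM of the 8 ligands and antagonists and serve as a lower guide to free RNA. Other classes may hold more. The chondrocyte marker Ucma was at 7.12 CPM in erythroid-like, 105 CPM in endothelial-like and 146 CPM in pericyte or smooth muscle-like cells. How much of the low levels there is free RNA was not tested. The heatmap of levels by class shows these patterns side by side.

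**Figure D1:**
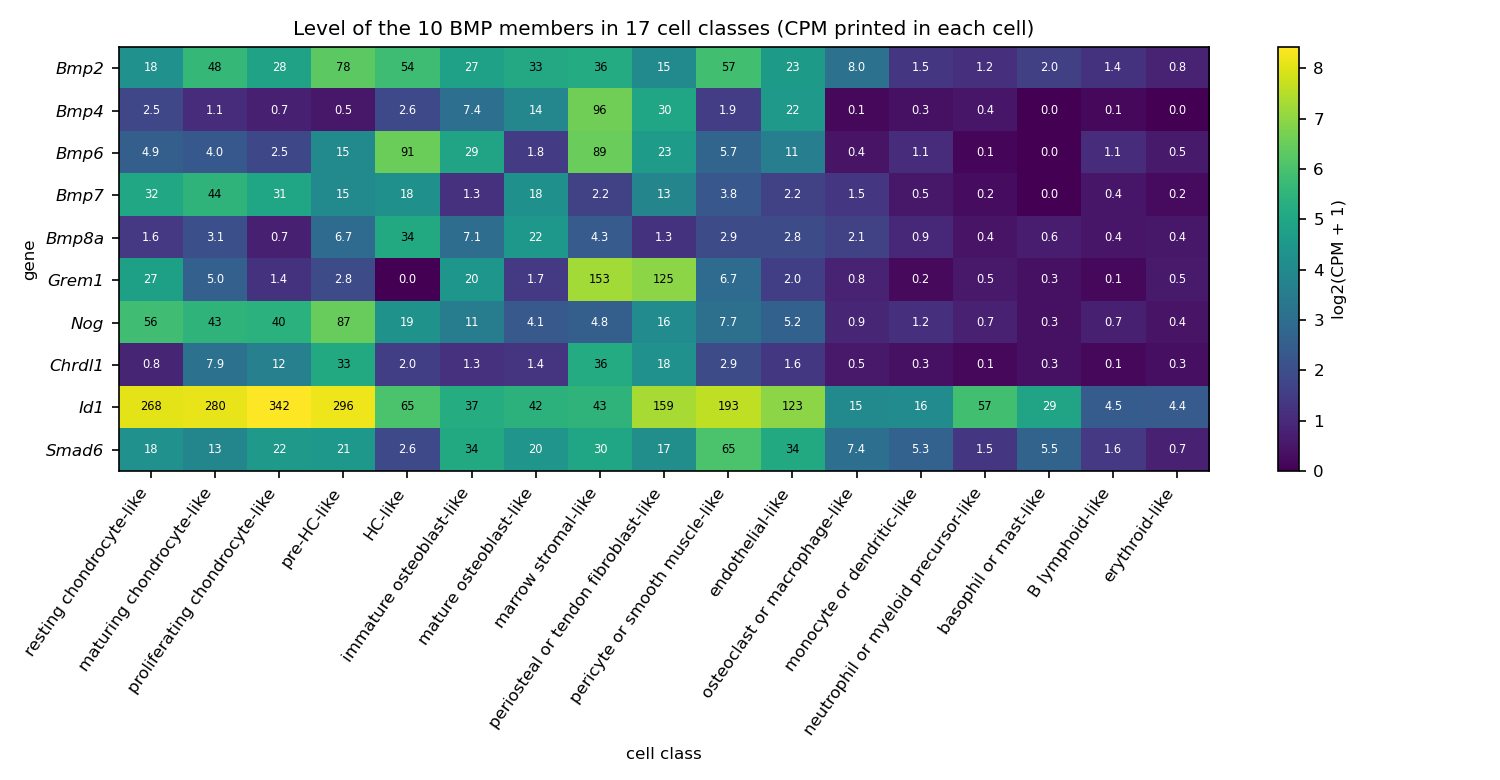
Level of the 10 genes (rows) in the 17 classes (columns). Colour is log2(CPM + 1) and the CPM is printed in each field. Grem1 stands out in marrow stromal-like (153 CPM) and periosteal or tendon fibroblast-like cells (125 CPM), and Id1 in the chondrocyte classes other than HC-like cells (268 to 342 CPM). Blood classes on the right are dark for ligands and antagonists.

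Bmp2, a ligand that drives chondrocyte maturation and fracture repair, was highest in pre-HC-like cells with 78.3 CPM (interval 74.6 to 82.1). Maturing chondrocyte-like cells had 48.3 CPM, proliferating chondrocyte-like cells 27.8 CPM and resting chondrocyte-like cells 18.01 CPM. It stood at 54.4 CPM in HC-like, 27.0 CPM in immature osteoblast-like and 32.7 CPM in mature osteoblast-like cells. Pre-HC-like cells were separable from the next class, pericyte or smooth muscle-like cells at 57.4 CPM (log2 ratio 0.45, interval 0.08 to 0.84), whereas pericyte or smooth muscle-like, HC-like and maturing chondrocyte-like cells followed each other in the order with intervals of the ratio that included equality. Cartilage classes held 67.1% of the 3989 Bmp2 UMIs. After each cell was thinned to 5000 UMIs, with up to 137 shallower cells of a class left out, 20.7% of 792 pre-HC-like cells had a Bmp2 UMI (interval 17.9 to 23.7%), against 0.66% of 605 erythroid-like cells. Without thinning the pre-HC-like share was 53.3%.

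The 2 pre-HC-like clusters differed. The first, with 181 cells and 229 CPM of Ihh, the hedgehog ligand of prehypertrophic cells, had 170 CPM of Bmp2 (interval 160 to 181). The second, with 612 cells led by Il17b, had 51.0 CPM of Ihh and 42.5 CPM of Bmp2 (39.3 to 45.9), a log2 ratio of 2.002 (1.86 to 2.15). The Ihh-rich cluster also had more Bmp6 (46.1 against 2.76 CPM) and Bmp8a (18.2 against 2.31 CPM), and less Smad6 (5.78 against 27.3 CPM). A gene was called between 2 groups when it differed at least 2-fold with an interval that excluded equality and had at least 10 CPM in either group. By this rule 3 of 8 genes tested were higher and 1 was lower in the Ihh-rich cluster, against 5.42% and 3.09% of all 6917 genes tested. Nog, Chrdl1, Id1 and Bmp7 did not reach the fold. Median depth was 33597 UMIs in the Ihh-rich and 24498 UMIs in the Il17b-rich cluster. This split depended on the clustering: the cluster with most Ihh had 88.6 to 181 CPM of Bmp2 over the alternatives. The Il17b-rich cluster, most of the pre-HC-like class, was weakly named. Its mean log2 fold over other cells was 1.18 for the pre-HC markers and 1.73 for another marker list. The name rests on 3 pre-HC markers among its top 10 genes. Col10a1 was at 30.3 CPM there and at 1824 CPM in the Ihh-rich cluster.

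Bmp4, a ligand of many mesenchymal tissues, was nearly absent from cartilage, with 0.46 CPM in pre-HC-like and 2.61 CPM in HC-like cells. Marrow stromal-like cells, which express the niche factor Cxcl12, had 96.4 CPM (82.8 to 112), followed by periosteal or tendon fibroblast-like cells with 29.8 CPM and endothelial-like cells with 22.1 CPM, and each of these 3 was separable from the next. Mature osteoblast-like cells had 13.9 CPM and immature osteoblast-like cells 7.40 CPM. Although marrow stromal-like cells gave 1.35% of all UMIs, they held 23.6% of the 760 Bmp4 UMIs. Of 132 thinned marrow stromal-like cells, 28.8% had a Bmp4 UMI (21.2 to 37.3%), and of 605 erythroid-like cells 0% did (Clopper-Pearson upper bound 0.608%).

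Bmp6, a ligand known for its role in iron control by liver endothelium and made by hypertrophic cartilage, had 2 peaks that could not be separated with all cells of each class. HC-like cells had 91.2 CPM (80.8 to 103) and marrow stromal-like cells 88.9 CPM (75.8 to 104), a log2 ratio of 0.04 (-0.25 to 0.32). Without the marrow stromal-like cells of over 1% erythroid marker UMIs, that class had 124 CPM (105 to 146), above the HC-like interval. Immature osteoblast-like cells had 29.4 CPM and mature osteoblast-like cells 1.79 CPM. Pre-HC-like cells had 14.9 CPM, and resting, proliferating and maturing chondrocyte-like cells had 2.51 to 4.91 CPM. A Bmp6 UMI was found in 34.1% of 85 thinned HC-like cells and in 36.4% of 132 marrow stromal-like cells.

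Bmp7, a ligand best known from kidney and skeleton, was a gene of the less mature chondrocytes. Maturing chondrocyte-like cells had 43.6 CPM (40.2 to 47.3), resting chondrocyte-like cells 31.5 CPM and proliferating chondrocyte-like cells 30.8 CPM, the last pair not separable. Pre-HC-like cells had 14.9 CPM and HC-like cells 17.6 CPM. In the osteogenic classes it stood at 1.31 CPM in immature osteoblast-like, 17.7 CPM in mature osteoblast-like and 2.15 CPM in marrow stromal-like cells. Cartilage classes held 72.9% of its 1614 UMIs.

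Bmp8a, a ligand known from germ cells and bone, had its highest level in HC-like cells with 33.5 CPM (27.4 to 40.7), separable from mature osteoblast-like cells with 21.6 CPM (18.9 to 24.6). Immature osteoblast-like cells with 7.11 CPM and pre-HC-like cells with 6.74 CPM came next and were not separable. No other class passed 4.31 CPM. In all cells it had 680 UMIs.

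Grem1, an antagonist that also marks skeletal stem cells, was highest in marrow stromal-like cells with 153 CPM (136 to 172), then in periosteal or tendon fibroblast-like cells with 125 CPM. The order of these classes depended on the clustering: in 5 of the 10 settings with a marrow stromal-like class the fibroblast-like class was higher, and the marrow stromal-like level lay between 98.6 and 237 CPM. Resting chondrocyte-like cells had 26.6 CPM and immature osteoblast-like cells 20.3 CPM, which were not separable. HC-like cells had 0 of their UMIs from Grem1, which allows up to 0.977 CPM. A Grem1 UMI was found in 41.7% of thinned marrow stromal-like cells (33.2 to 50.6%). Within the fibroblast-like class, the cluster led by Tnmd, a tendon gene, had 185 CPM of Grem1 (166 to 205) in 162 cells and the cluster led by Aspn had 20.3 CPM (12.7 to 30.7) in 115 cells. Over the alternatives the cluster with most Tnmd had 76.0 to 341 CPM of Grem1. Between these clusters 6 of 9 genes tested were called lower in the Aspn-rich cells (Bmp4, Bmp6, Bmp7, Grem1, Chrdl1 and Id1), against 11.4% of all genes, and 0 of 9 higher, against 4.04%.

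Nog, the antagonist noggin, was a cartilage gene. Pre-HC-like cells had 86.8 CPM (82.9 to 90.8), resting chondrocyte-like cells 56.1 CPM, maturing chondrocyte-like cells 43.5 CPM and proliferating chondrocyte-like cells 40.4 CPM, the last pair not separable. HC-like cells had 19.2 CPM, and the osteogenic classes had 4.06 to 10.9 CPM. Cartilage classes held 84.3% of 3365 Nog UMIs. A UMI was found in 31.1% of thinned pre-HC-like cells (27.9 to 34.4%).

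Chrdl1, chordin-like 1, an antagonist of the chordin family, had 35.5 CPM in marrow stromal-like cells (27.5 to 45.2) and 33.3 CPM in pre-HC-like cells, levels that could not be separated (log2 ratio 0.09, -0.29 to 0.46). Without the marrow stromal-like cells of over 1% erythroid marker UMIs, that class had 55.1 CPM (42.4 to 70.3), above the pre-HC-like interval. Periosteal or tendon fibroblast-like cells had 18.1 CPM. Resting chondrocyte-like cells had 0.82 CPM, proliferating chondrocyte-like cells 11.6 CPM, HC-like cells 1.95 CPM and maturing chondrocyte-like cells 7.87 CPM. Among cartilage classes Chrdl1 was highest in pre-HC-like cells.

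Id1 was highest in proliferating chondrocyte-like cells with 342 CPM (325 to 360), and stood at 296 CPM in pre-HC-like, 280 CPM in maturing chondrocyte-like and 268 CPM in resting chondrocyte-like cells. Scrublet marked 17.3% of the proliferating chondrocyte-like cells as doublets. HC-like cells had 65.1 CPM (56.4 to 74.8), and the 3 osteogenic classes 36.6 to 43.1 CPM. Pericyte or smooth muscle-like cells had 193 CPM, periosteal or tendon fibroblast-like cells 159 CPM and endothelial-like cells 123 CPM. Among blood classes neutrophil or myeloid precursor-like cells had 57.1 CPM (53.2 to 61.2), where 24.5% of 939 thinned cells had a UMI, against 4.36 CPM and 2.15% of cells in erythroid-like cells. Smad6 was highest in pericyte or smooth muscle-like cells with 65.0 CPM (50.5 to 82.5), separable from immature osteoblast-like cells with 33.8 CPM. Endothelial-like, marrow stromal-like and immature osteoblast-like cells were not separable for Smad6. HC-like cells had 2.61 CPM (1.13 to 5.13), from 8 UMIs, the lowest level of Smad6 in any of the 11 skeletal or vascular classes.

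The endothelial-like class also held 2 clusters. The cluster of 72 cells led by Eln, with 691 CPM of the arterial gene Gja4, had more of all 5 genes that were tested than the 770 cells led by Emcn, a gene of sinusoidal and venous vessels. Bmp6 was at 103 against 4.36 CPM, Bmp2 at 51.7 against 21.1 CPM, Bmp4 at 43.6 against 20.5 CPM, Id1 at 304 against 109 CPM and Smad6 at 93.9 against 29.0 CPM. Of all genes tested 10.6% were called higher and 6.87% lower in the Eln-rich cluster. None of the 8 endothelial markers was among the top 10 genes of the Eln-rich cluster, although 7 of the 8 reached 10 CPM. At a clustering resolution of 0.6 the cluster with most Gja4 had 11 CPM of Bmp6.

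**Figure D2:**
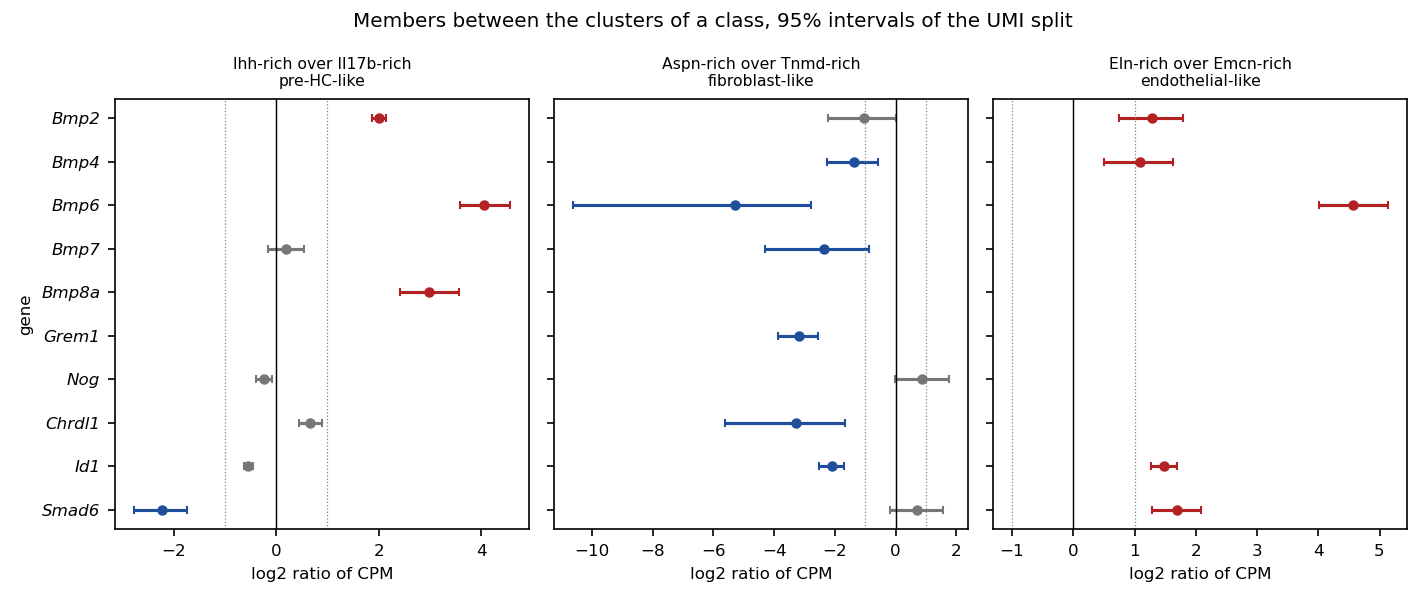
Log2 ratio of CPM (x axis) for each gene tested, between the clusters of the pre-HC-like, fibroblast-like and endothelial-like classes. Bars are 95% intervals of the UMI split, dotted lines mark a 2-fold difference, and red and blue mark calls of higher and lower. Bmp2, Bmp6 and Bmp8a lie to the right in the Ihh-rich pre-HC-like cluster, and 6 genes are called lower in the Aspn-rich cluster.

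The comparison of osteogenic with chondrogenic cells sets 3 pooled classes (immature osteoblast-like, mature osteoblast-like and marrow stromal-like) against the pooled cartilage classes. In 1231 osteogenic and 1925 chondrogenic cells all 10 genes had at least 10 CPM in either group, and 3 were called higher and 4 lower in osteogenic cells, against 20.3% and 9.22% of all 8394 genes tested. The 3 higher genes were Bmp4 (19.5 against 0.93 CPM, log2 ratio 4.38, interval 3.92 to 4.88), Grem1 (22.8 against 4.40 CPM, 2.38, 2.13 to 2.63) and Bmp8a (14.8 against 6.62 CPM, 1.16, 0.92 to 1.40). The 4 lower genes were Nog (6.56 against 63.0 CPM, -3.26, -3.53 to -3.01), Id1 (40.1 against 278 CPM, -2.80, -2.90 to -2.69), Chrdl1 (4.65 against 19.7 CPM, -2.08, -2.41 to -1.77) and Bmp7 (10.4 against 26.1 CPM, -1.33, -1.55 to -1.11). Bmp2 (-0.94), Bmp6 (0.41) and Smad6 (0.56) had intervals that excluded 0 and stayed under 2-fold. These 3 were not stable: over the alternatives Bmp2 ran from -1.31 to -0.76, Bmp6 from -0.28 to 1.32 and Smad6 from 0.23 to 1.06. For Bmp8a the call rests on the class boundaries: its log2 ratio was between 0.31 and 1.41 over the alternatives, with 6 of 11 below 1. The Bmp7 ratio was -0.83, under 2-fold, when at most 5% mitochondrial UMIs were allowed. Not every pooled call held in each class. Marrow stromal-like cells gave 284 of the 442 osteogenic Grem1 UMIs and 179 of the 377 Bmp4 UMIs. Mature osteoblast-like cells had 1.70 CPM of Grem1, below the pooled cartilage level, while Bmp4 was above its pooled cartilage level in all 3 classes. Chrdl1, called lower, had 35.5 CPM in marrow stromal-like cells, above its pooled cartilage level. Bmp8a, called higher, had 4.31 CPM in marrow stromal-like cells, below its pooled cartilage level, and 7.11 CPM in immature osteoblast-like cells. Mature osteoblast-like cells gave 229 of its 286 osteogenic UMIs. Its level in HC-like cells, 33.5 CPM, was above all 3 osteogenic classes.

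**Figure D3:**
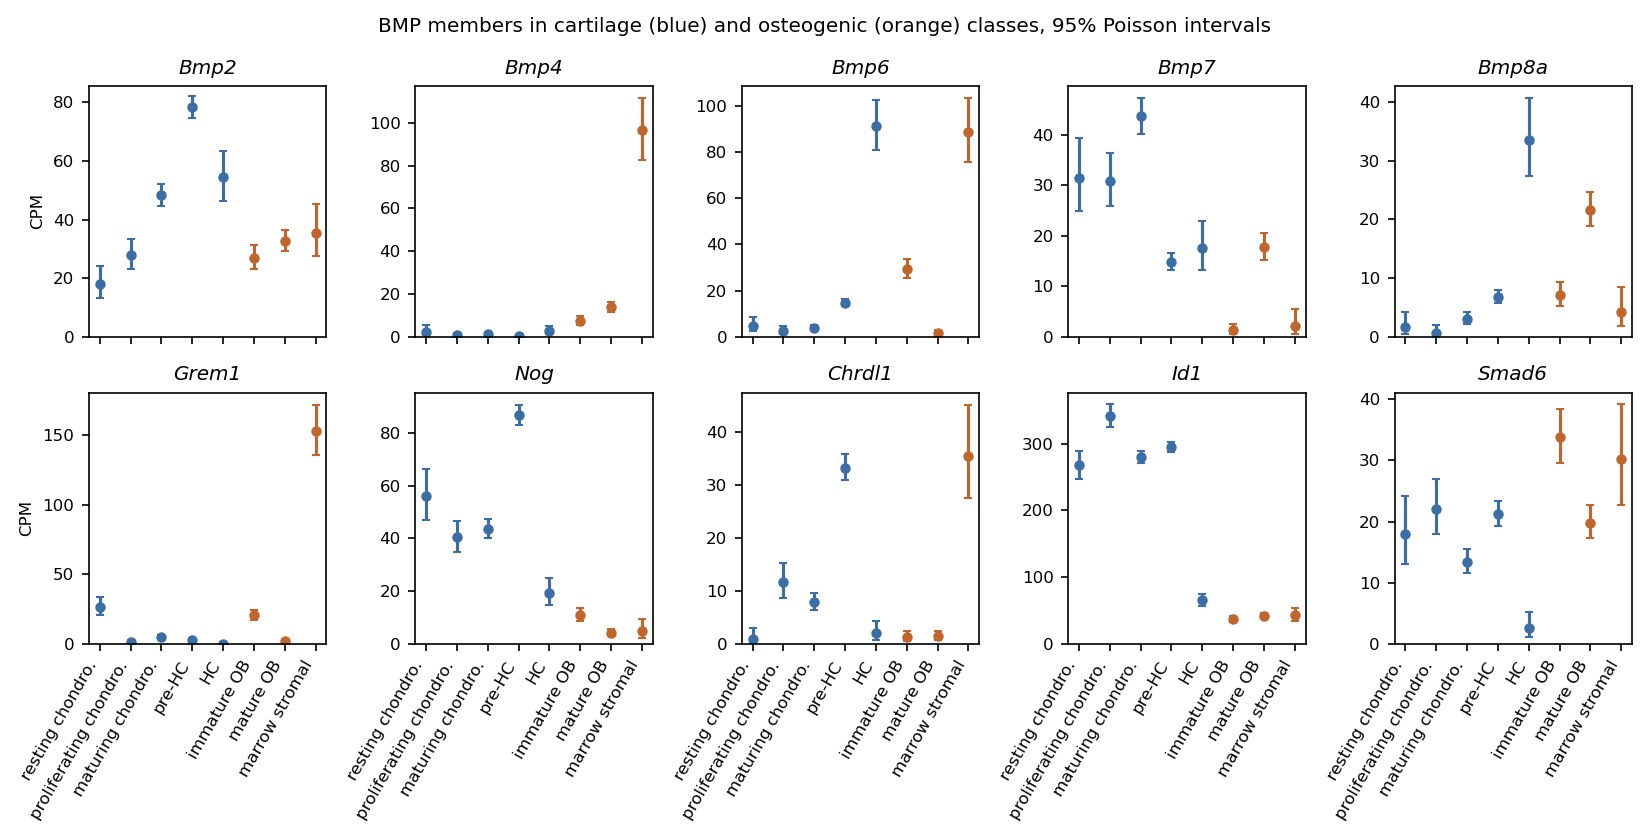
CPM (y axis, from 0) of each gene in the 5 cartilage (blue) and 3 osteogenic (orange) classes. Bars are 95% Poisson intervals. Bmp6 and Bmp8a peak in HC-like cells among the cartilage classes, Nog, Chrdl1 and Id1 lie low from HC-like cells on except Chrdl1 in marrow stromal-like cells, and Bmp4 and Grem1 peak in marrow stromal-like cells.

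The step from pre-HC-like to HC-like cells showed the largest number of calls along the cartilage classes, both for these genes and among all genes tested. In 85 HC-like against 793 pre-HC-like cells, Bmp6 (log2 ratio 2.62, 2.38 to 2.85) and Bmp8a (2.31, 1.94 to 2.69) were higher, and Nog (-2.18, -2.57 to -1.80), Chrdl1 (-4.09, -5.54 to -2.96), Id1 (-2.18, -2.39 to -1.98) and Smad6 (-3.03, -4.25 to -2.04) were lower. These 2 higher and 4 lower genes of 8 tested stand against 26.1% and 7.07% of all genes, so the share called higher was near that of all genes. At this step the antagonists Nog and Chrdl1 and both targets were lower and the ligands Bmp6 and Bmp8a higher, while Bmp2 differed by -0.52 and Bmp7 by 0.24 (interval -0.20 to 0.66). These ratios depended on which pre-HC-like cells were used. Against the 181 Ihh-rich pre-HC-like cells alone, 4 of 7 genes tested were lower in HC-like cells, namely Bmp2 (-1.65), Nog (-2.002), Chrdl1 (-4.54) and Id1 (-1.77), and 0 were higher, against 6.78% and 24.8% of all genes. In that comparison Bmp6 (0.98) and Bmp8a (0.88) stayed under 2-fold, and Smad6, at 2.61 against 5.78 CPM, was under the 10 CPM needed. Between maturing and resting chondrocyte-like cells, 1 gene was higher (Bmp2, 1.42) and 1 lower (Grem1, -2.42) of 6 tested, against 3.08% and 5.95% of all genes. Between pre-HC-like and maturing chondrocyte-like cells, 2 genes were higher (Bmp6, 1.89, and Chrdl1, 2.08) and 1 lower (Bmp7, -1.55) of 7 tested, against 2.32% and 5.04%. Nog was just under 2-fold in this step. The Bmp6 difference lay in the Ihh-rich cluster (46.1 CPM), since the 612 Il17b-rich cells had 2.76 CPM against 4.01 CPM in maturing chondrocyte-like cells. Chrdl1 was higher and Bmp7 lower than in maturing chondrocyte-like cells in both pre-HC-like clusters, while Smad6 was called lower in the Ihh-rich (-1.22) and higher in the Il17b-rich cluster (1.02). In all, 4 of 8 genes tested were higher and 2 lower in the Ihh-rich cluster than in maturing chondrocyte-like cells, against 5.89% and 8.55% of all genes, and 3 of 6 were higher and 1 lower in the Il17b-rich cluster, against 1.63% and 5.61%.

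From HC-like to immature osteoblast-like cells, Bmp2, Bmp6, Bmp7 and Bmp8a were called lower, and Grem1 and Smad6 higher, of 8 genes tested, against 17.2% lower and 22.6% higher among all genes. Grem1 had 140 UMIs against 0, and the interval of its log2 ratio began at 4.06. Smad6 had a log2 ratio of 3.70 (2.69 to 4.93). From immature to mature osteoblast-like cells, Bmp7 (3.76, 2.81 to 4.92) and Bmp8a (1.60, 1.15 to 2.08) were higher, and Bmp6 (-4.04, -4.80 to -3.36), Grem1 (-3.58, -4.38 to -2.87) and Nog (-1.42, with an upper bound of -0.86) were lower, of 9 tested, against 5.3% and 16.5%. Marrow stromal-like against immature osteoblast-like cells had Bmp4 (3.70), Bmp6 (1.59), Grem1 (2.91) and Chrdl1 (4.77) higher and Nog (-1.17) lower, of 8 tested, against 6.17% and 3%. The Nog ratio ranged from -1.46 to -0.12 over the alternatives. Without the cells that held over 1% erythroid marker UMIs, the 98 marrow stromal-like cells left had 147 CPM of Bmp4, 124 CPM of Bmp6, 227 CPM of Grem1 and 55.1 CPM of Chrdl1, and the same 5 genes were called in the same directions. At these levels the intervals of Bmp6 (105 to 146 CPM) and Chrdl1 (42.4 to 70.3 CPM) in marrow stromal-like cells lay above those of HC-like and pre-HC-like cells.

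Ligands and antagonists were also seen in single cells. After thinning to 5000 UMIs, 54.1% of 85 HC-like cells had a UMI of at least 1 of the 5 ligands (interval 43.0 to 65.0%) and 8.24% had one of the 3 antagonists (3.38 to 16.2%). In pre-HC-like cells the shares were 29.9% and 39.8% of 792 cells. Marrow stromal-like cells had 59.1% and 50% of 132 cells, and 36.4% had both (28.2 to 45.2%). Mature osteoblast-like cells had 30.7% with a ligand and 3.50% with an antagonist. In erythroid-like cells, taken as a lower guide to background, the shares were 1.32% and 0.99%. The depth after thinning is the same in every class. The sets differ in size, so a share is compared between classes and not with the share of the other set. Other secreted antagonists or modulators were not counted. Among these, Twsg1 was at 102 CPM and Fstl3 at 21.2 CPM in HC-like cells, and Nbl1 at 69.1 CPM in mature osteoblast-like cells.

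HC-derived cells are those with more than 14 UMIs of WPRE, a vector element in the reporter transcript that marks cells which expressed Col10a1Cre or descend from such cells. The same Cre drives the Irx3 deletion, so HC origin and loss of an Irx3 copy cannot be told apart in this comparison. They made up 83.5% of HC-like, 17.9% of immature osteoblast-like, 34.5% of mature osteoblast-like and 21.5% of marrow stromal-like cells, and 3 of 3422 blood class cells. In the 1231 osteogenic cells, 311 HC-derived cells had more Bmp8a (23.0 against 11.2 CPM, log2 ratio 1.04, 0.69 to 1.38) and less Smad6 (14.4 against 30.7 CPM, -1.09, -1.44 to -0.75) than 920 others. These are 1 higher and 1 lower of 8 genes tested, against 1.06% and 1.7% of all genes. Over 15 alternatives the ratios were 0.83 to 1.15 for Bmp8a and -1.19 to -0.87 for Smad6, on both sides of 2-fold. Of the 311 HC-derived cells, 178 were mature osteoblast-like. In mature osteoblast-like cells, Smad6 was called lower (10.9 against 25.2 CPM, -1.21, -1.72 to -0.72), 1 of 6 tested, against 1.12% of all genes lower and 1.46% higher, and its ratio ranged from -1.35 to -0.66 over the alternatives. Bmp8a was at 29.3 against 16.9 CPM there (0.80, 0.41 to 1.18), under 2-fold. Id1 was at 29.8 against 49.1 CPM (-0.72, -1.03 to -0.41). In immature osteoblast-like cells 0 of 6 genes were called and in marrow stromal-like cells, with 29 HC-derived cells, 0 of 8, where the background was 1.78% and 2.04% higher and 2.66% and 2.85% lower. Median depth was 16097 UMIs in HC-derived and 12820.5 UMIs in other osteogenic cells. With the WPRE cutoff scaled by depth, Smad6 was no longer called lower in all osteogenic cells, while 1 gene was still called higher. Beyond that setting, the part of depth in the ratios was not tested.

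**Figure D4:**
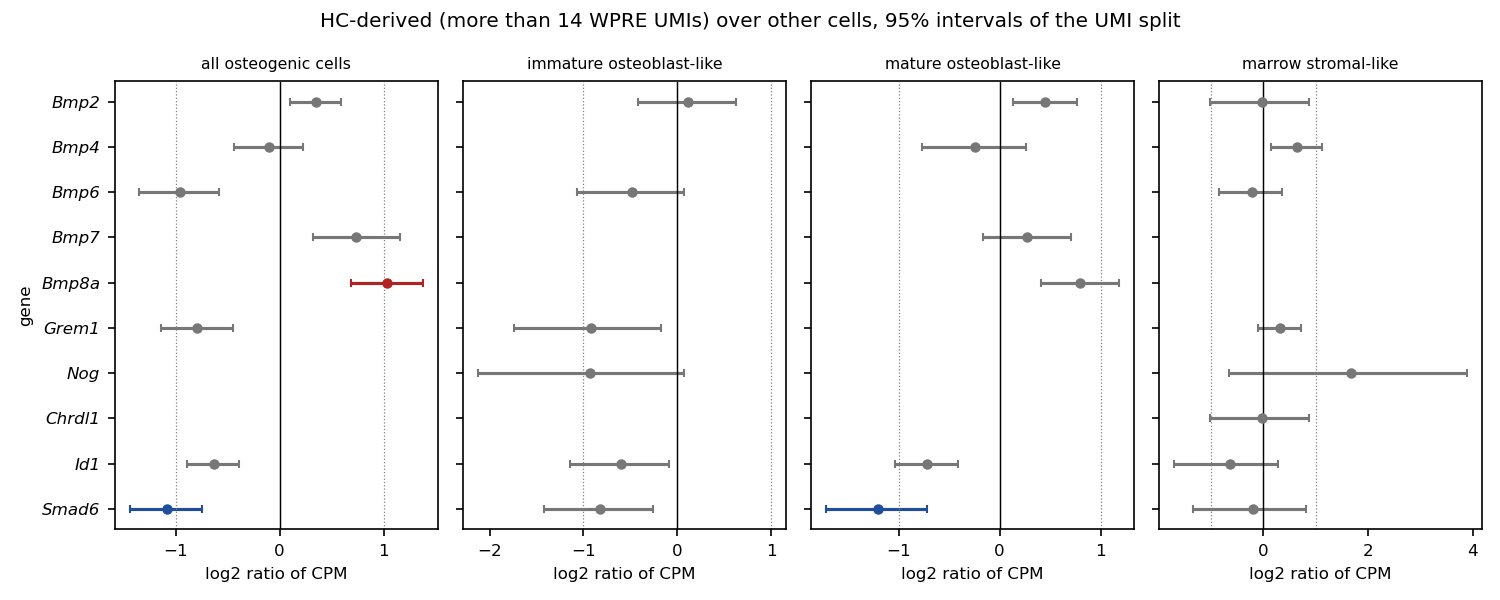
Log2 ratio of CPM (x axis) between HC-derived and other cells for each gene tested, in all osteogenic cells and in each class. Bars are 95% intervals of the UMI split, dotted lines mark a 2-fold difference, and red and blue mark calls. Smad6 and Id1 lie left of 0 in all 4 panels, and in marrow stromal-like cells their intervals include 0.

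All 54 other genes of the BMP pathway list were found in the matrix, 1 of them (Hjv) under an older symbol, and 35 reached 20 CPM in at least 1 class. In osteogenic against chondrogenic cells 11 of 30 tested were called higher and 4 lower, with a median log2 ratio of 0.80, against 20.3% and 9.22% of all genes and a median of 0.25. Among the ligands Gdf10 was a cartilage gene, highest in pre-HC-like cells with 245 CPM and lower in osteogenic cells (-3.30). Gdf5, the joint-forming ligand, had 62.5 CPM in HC-like cells and at most 7.13 CPM elsewhere. Bmp3, an inhibitory ligand of bone, was highest in mature osteoblast-like cells with 63.6 CPM, and Bmp5 in marrow stromal-like cells with 89.9 CPM. Bmp1, highest in mature osteoblast-like cells with 603 CPM, is a procollagen protease and not a ligand of this family.

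Among the antagonists and modulators, Fst (follistatin) was highest in marrow stromal-like cells with 132 CPM, as were Bmp4 and Grem1. Chrd (chordin) and Nbl1 were highest in periosteal or tendon fibroblast-like cells, with 26.4 and 352 CPM. Of the 6 tested in this list, 3 were called higher and 2 lower in osteogenic cells, against 20.3% and 9.22% of all genes. The same shares apply to the lists below, and lists this short are not read as results about a group. The receptors Bmpr1a and Bmpr2 did not reach 2-fold (-0.11 and 0.66), while Acvr1 and the co-receptor Eng were higher in osteogenic cells (1.39 and 1.93), which makes 2 of 4 tested. Eng had 592 CPM in endothelial-like cells. Of the 9 tested Smads and intracellular inhibitors, 1, Bambi, a decoy receptor with 163 CPM in mature osteoblast-like cells, was called higher and 8 did not pass the rule. Among the targets, Id3 had 690 CPM in osteogenic and 349 CPM in chondrogenic cells (0.98), just under 2-fold. In HC-like cells Id3 was at 76.2 CPM, against 370 CPM in pre-HC-like cells. Of the 7 targets tested, 2 were called higher in osteogenic cells, Msx1 (1.47) and Hey1 (1.09), and 1 lower, Atoh8 (-2.27). Id4 (0.99) and Id2 (-0.98) were also just under 2-fold.

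**Figure D5:**
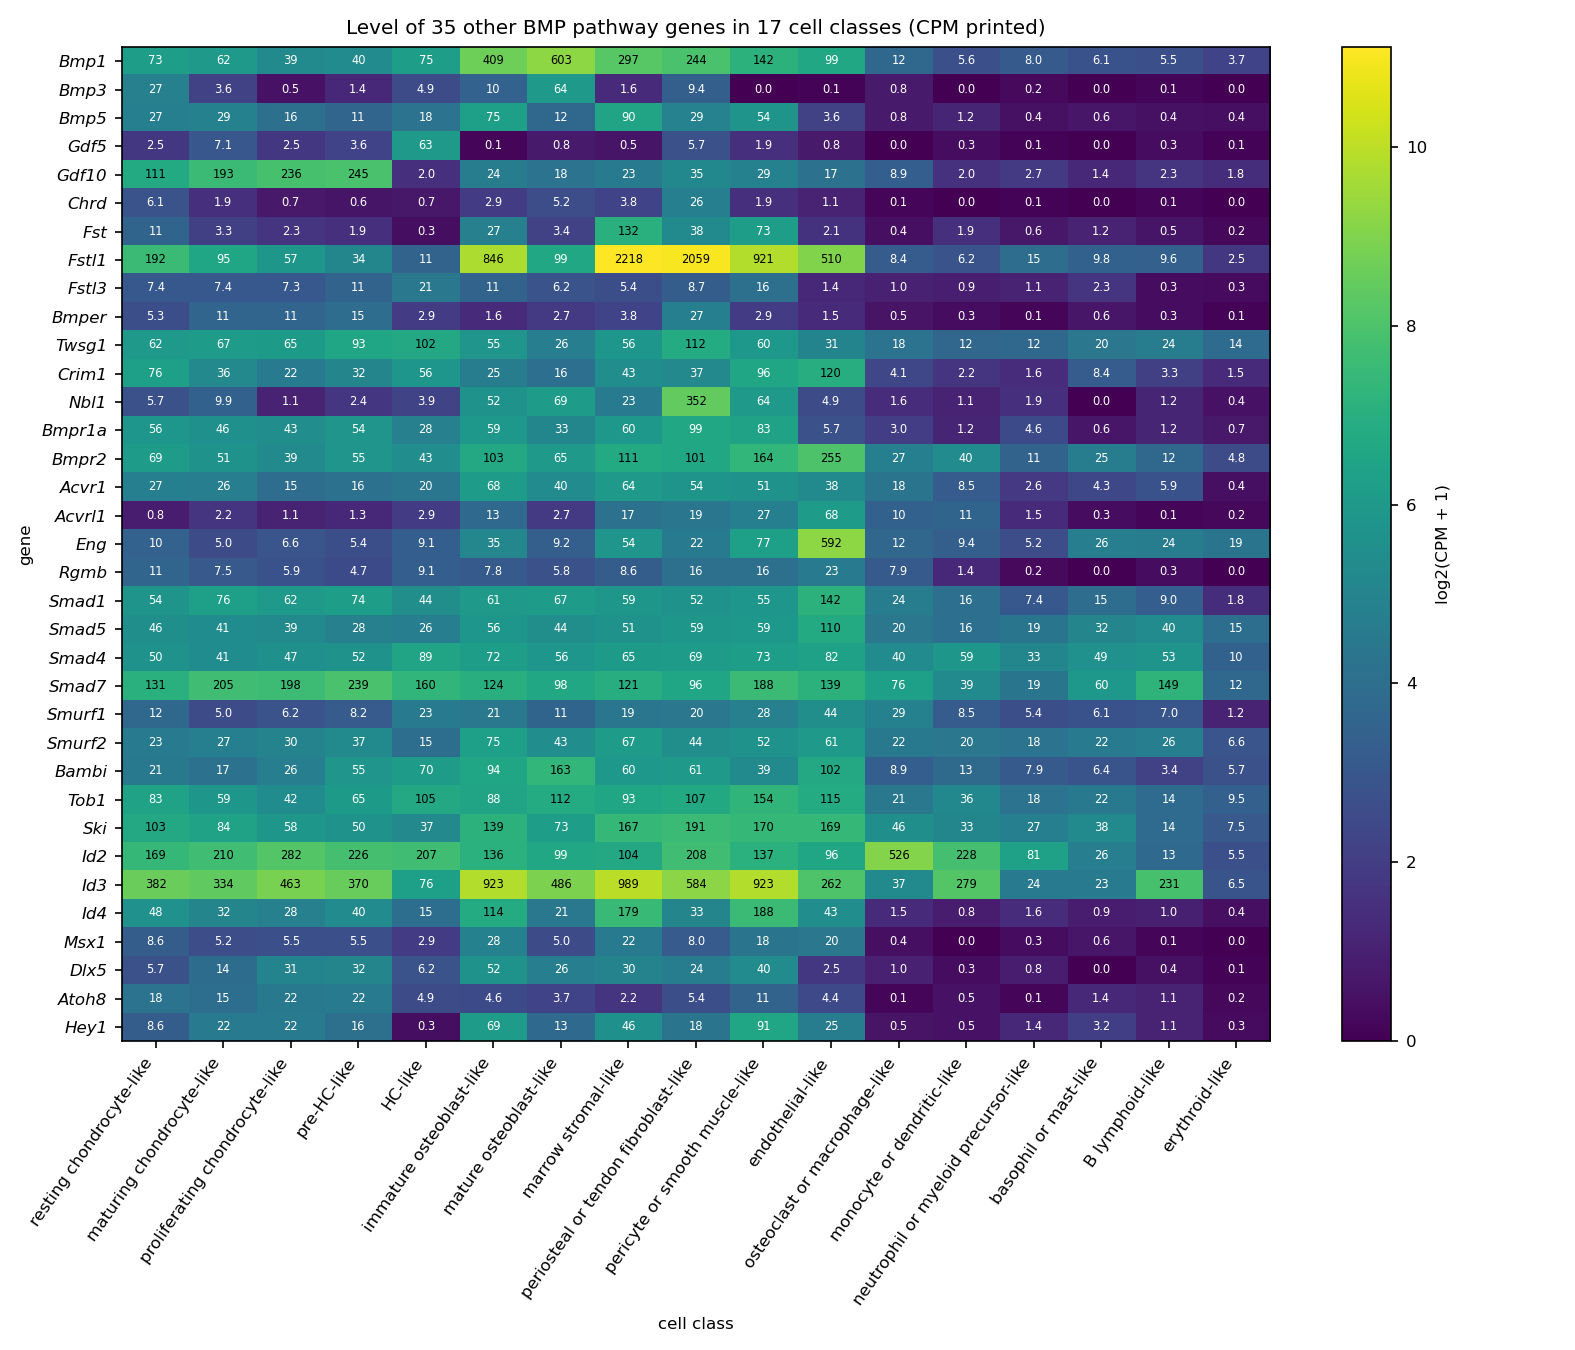
Level of the 35 other BMP pathway genes that reached 20 CPM in a class (rows) in the 17 classes (columns). Colour is log2(CPM + 1) and the CPM is printed in each field. Gdf10 is bright in the chondrocyte classes before HC-like cells and Gdf5 in HC-like cells alone, and Fst in marrow stromal-like cells.

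The genes whose pattern over the 17 classes was most like that of each gene were named among 6501 others with at least 50 CPM in a class, by Pearson's r of log2(CPM + 1). For Nog they were Pak3, Fgfr3 and Sox9 (r of 0.97 each), for Bmp7 Col11a1, Ooep and Zfp469 (0.97), for Grem1 Abi3bp, Ltbp2 and Ogn (0.97 to 0.94), for Bmp2 Calu, Laptm4a and Bcar1 (0.95 to 0.94) and for Bmp4 Dpysl3, Adamts5 and Stox2 (0.92 to 0.90). For Bmp8a they were Irx5, Fabp3 and Slc35b1 (0.93 to 0.90), for Bmp6 Flnc, Sulf1 and Ddit4l (0.89 to 0.88), for Id1 Cd9, Mcu and Gfpt2 (0.92 to 0.91), for Smad6 Hey1, Dgkh and Hip1 (0.92 to 0.91) and for Chrdl1 Matn2, Cdkn1c and Rspo3 (0.81 to 0.80). The points share 1 library and differ in depth, so these values describe the library. A high r does not mean the same highest class: Dpysl3, Adamts5 and Stox2 were highest in immature or mature osteoblast-like cells, and Bmp4 in marrow stromal-like cells. Irx5 is 1 of the genes that are heterozygous in this animal. Among the 10 genes, Bmp7 and Nog (0.88) and Nog and Id1 (0.85) were most alike over the classes.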

How the data were processed

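The tibiae were dissociated and 1 droplet library was counted. The authors deposited a UMI count for every gene in every barcode, without normalization, made with Cell Ranger 3.1.0 on mm10, with tdTomato and WPRE sequences added. The labels also list Seurat 3. No source used here gives the annotation release. A second deposited count matrix gave WPRE and tdTomato UMIs, joined by barcode. Coordinates are from GENCODE M21.

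Barcodes with at least 1600 genes (the study's minimum), at most 10% mitochondrial and 50% ribosomal protein UMIs were kept. For clustering, each cell was scaled to 10000 UMIs on a log scale. Leiden clustering (resolution 1, seed 1) used 2000 variable genes without the BMP genes, 30 components and 20 neighbours. Scrublet marked 588 barcodes (4.15%), which were kept. To name a cluster, marker lists were ranked by their number of markers among its top 10 genes, then by mean log2 fold. Clusters were named from 23 marker lists where at least 3 markers reached 10 CPM and either 2 stood among the top 10 genes or the mean log2 fold was at least 1, limits set after the clusters were seen, so names may differ from those of the study. Clusters with over 50% doublets, or whose Col1a1, Col2a1 or Ptprc level went against the name, stayed unnamed, and chondrocyte clusters with Top2a in over 50% of cells were called proliferating. The genes named in the text are the 10, pathway genes at 20 CPM in a class, the 3 most alike genes of each and markers that describe a class. The genes and lists were chosen with earlier results of these data known.

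Ratios carry exact binomial intervals of the UMI split and shares Clopper-Pearson intervals, at 95%. For 0 counts, the limit is 3 counts. Shares were taken after thinning to 5000 UMIs. With 1 library there was no test. Python 3.11.15, scanpy 1.11.5, numpy 2.4.6, scipy 1.17.1 and pandas 2.3.3 were used. Alternatives changed the clustering, the filters, the weighting, the reporter cutoff and the thinning; seeds 2 and 3, the setting without cells of over 1% erythroid marker UMIs and the comparisons with single pre-HC-like clusters were added after seeing the data.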

Additional observations from a re-analysis of the deposited data

How the results depend on the processing

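No paired analysis was possible because all entries are 1 library of 1 mouse. Over 11 alternatives of clustering, filter, seed and weighting, 5 to 8 of the 10 genes were highest in a cartilage class (6 as reported), 2 to 4 were higher and 4 to 5 lower in osteogenic cells, and 31 to 37 pathway genes reached 20 CPM (35 as reported). In these 11 the calls for Bmp4, Grem1, Nog, Chrdl1 and Id1 held, and Bmp8a was under 2-fold in 6. Bmp6 was highest in marrow stromal-like cells in 8 of 12 settings, Chrdl1 in pre-HC-like cells in 7 of 10 and Grem1 in fibroblast-like cells in 5 of 10. The 12 include, and the 10 leave out, the settings without a marrow stromal-like class. At resolution 0.6 and at 5% mitochondrial UMIs no marrow stromal-like class was found, so its values could not be given there, and elsewhere the class held 99 to 318 cells (135 as reported). No proliferating chondrocyte-like class was found at resolution 0.6, at 20% mitochondrial UMIs or with BMP genes among the variable genes. Id1 was highest in that class in all 9 settings that held it. The number of genes higher in HC-derived cells was 0 in place of 1 with 3000 variable genes, with BMP genes among the variable genes, at 20% mitochondrial UMIs, without Scrublet barcodes, with seeds 2 and 3, above 5 WPRE UMIs and by tdTomato. The number lower was 0 with BMP genes among the variable genes, seeds 2 and 3 and WPRE scaled by depth, and 2 at 5% mitochondrial UMIs and above 30 WPRE UMIs. The ratios behind these calls kept their sign, with 0.83 to 1.15 for Bmp8a and -1.19 to -0.87 for Smad6 on the log2 scale. At 5% mitochondrial UMIs the ratio of mature to immature osteoblast-like cells turned for Bmp4 (-1.52) and Chrdl1 (-3.71), and the cause was not tested. For Chrdl1, which had under 10 CPM in both classes as reported (0.12 on the log2 scale), the ratio was below 0 in all 11 alternatives (-3.71 to -0.08). Of the 10 genes, 8 had a UMI in at least 10% of a class after thinning to 3000 UMIs and 10 after thinning to 5000 UMIs or without thinning. Among single levels, 66 of 143 moved out of their counting interval, for example Bmp4 in marrow stromal-like cells (54.8 to 159 CPM) and Bmp7 in maturing chondrocyte-like cells (20.1 to 47.0 CPM).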
